A study of Homo sapiens with 15 samples.

Results

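Of the genes named in the platform annotation used here, a single one met the rule for amino acid transporter families: SLC38A12, which carried the symbol TMEM104 earlier. The rule took protein-coding genes whose symbol begins with SLC1A, SLC3A, SLC6A, SLC7A, SLC36A, SLC38A or SLC43A, and it was applied to 14812 named genes. The 7 prefixes matched 2 genes, of which 1 was protein-coding and 1 was of another type and was left out. The values below therefore describe SLC38A12 and not the families as a whole, whose other members are not analysed here. SLC38A12 was measured by 1 feature of the array, so no choice between features was needed.

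The cells were MV4-11, an established human acute myeloid leukemia line grown in RPMI1640 with serum. They were kept for 24 h with OTX015 at 300 nM, DW71177 at 300 nM, DW71374 at 300 nM, RVX208 at 5 uM or the solvent DMSO, with 3 arrays for each of the 5 groups. The series names the compounds BET inhibitors, agents that keep the BET proteins from binding acetylated lysines on chromatin. The labels speak of triplicate wells and do not say that these were separate cultures, so p-values measure only the spread between arrays, which may be technical. OTX015 is known to bind both bromodomains of the BET proteins and RVX208 to prefer the second one, while DW71177 and DW71374 are known here by code name only.

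Proteins of the SLC38 family carry small neutral amino acids such as glutamine, alanine and asparagine across membranes, in several members together with sodium. Some members work at the cell surface and others at the lysosome. Amino acids taken up this way feed protein synthesis and the mTORC1 kinase, which senses their supply, and growing leukemia cells depend on both. Its symbol places SLC38A12 in this family, and no substrate is given for it in the sources used here.

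The sequence around the gene's start is shown because transcription of the measured gene begins in it, and it is the one regulatory sequence of the gene in the sources used here. RefSeq places the SLC38A12 promoter window at chr17:74776249-74776548 on the plus strand of GRCh38.p14, from 250 bases before to 50 bases after the annotated start. Capitals mark the letters GCATGCGC on either strand.

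SLC38A12: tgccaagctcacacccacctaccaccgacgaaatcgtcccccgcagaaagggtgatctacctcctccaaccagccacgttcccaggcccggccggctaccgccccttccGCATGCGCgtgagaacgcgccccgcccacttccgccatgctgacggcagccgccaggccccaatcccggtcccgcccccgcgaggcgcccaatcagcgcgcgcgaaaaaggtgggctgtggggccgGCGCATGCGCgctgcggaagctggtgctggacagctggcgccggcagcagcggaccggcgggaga

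G and C made up 71.3% of the SLC38A12 window, against a median of 58.7% over all 35116 promoter windows of the same length. The E-box CACGTG, the sequence bound by MYC, had 0 matches in it on both strands and was present in 7.26% of all windows. TGATGNAAN, a form of the element bound by ATF4, also had 0 matches and was present in 3.61% of windows, as did TGACNNNGC, a form of the antioxidant response element, present in 13.3%. These results say only that the letters are not in this window. The letters GCATGCGC, searched for only after the sequence had been seen, occurred in 2 separate stretches that begin 141 and 15 bases before the start, and the stretch nearer the start holds matches on both strands that overlap. They occurred in 3.05% of all windows.

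SLC38A12 gave a signal between 8.37 and 8.79 on the log2 scale in all 15 arrays, whose medians over all features lay between 3.72 and 3.79. No background level was given, and the brightness of a feature is not an amount of transcript, so this says only that the feature was well lit in every group. The 15 values had a mean of 8.53 and spanned 0.42, which is less than a single doubling. The spread of SLC38A12 between replicate arrays was 0.10 (residual SD over the 5 groups), beside a median of 0.12 over all genes.

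With OTX015 the 3 arrays read 8.69, 8.40 and 8.46. With DW71177 they read 8.56, 8.51 and 8.44, and with DW71374 8.52, 8.53 and 8.48. With RVX208 they read 8.62, 8.59 and 8.79, against 8.37, 8.53 and 8.40 in DMSO. The RVX208 arrays were the only ones to lie entirely above the DMSO arrays, and those of OTX015, DW71177 and DW71374 overlapped with them. Of all genes tested, 12.7% had their 3 RVX208 arrays above the 3 DMSO arrays, so such a separation was common. OTX015 replicate 1 was higher than all arrays of DW71177, DW71374 and DMSO and than RVX208 replicates 1 and 2, while OTX015 replicate 2 was lower than 2 of the 3 DMSO arrays.

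**Figure D1:**
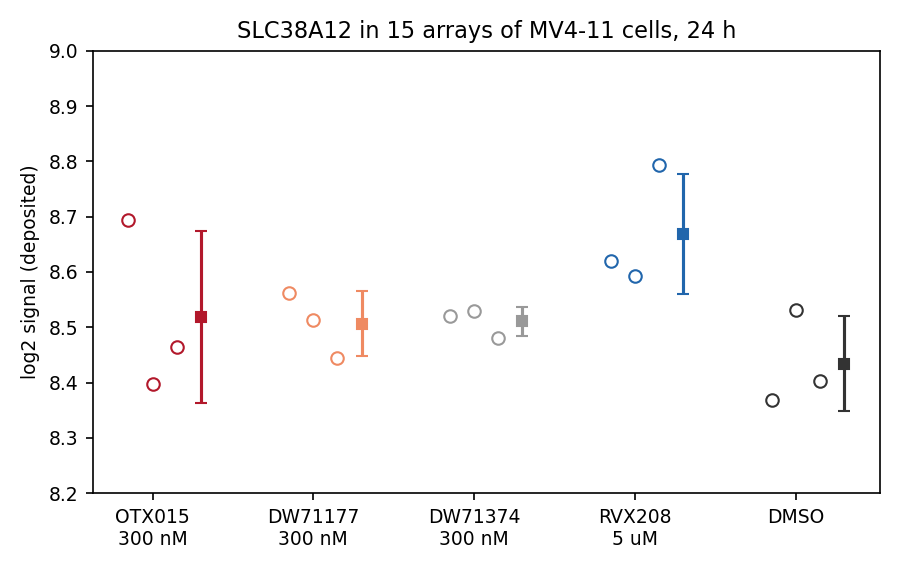
Deposited log2 signal of SLC38A12 (vertical axis, which does not start at 0) by group. Open circles are the 3 arrays of a group in the order of their replicate numbers, and squares with bars are the mean and SD; the RVX208 circles, from 8.59 to 8.79, lie above all 3 DMSO circles, from 8.37 to 8.53, while the other groups overlap with DMSO.

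In order of mean level, SLC38A12 stood at 8.67 ± 0.11 with RVX208, 8.52 ± 0.16 with OTX015, 8.51 ± 0.026 with DW71374, 8.51 ± 0.059 with DW71177 and 8.43 ± 0.086 in DMSO (log2 signal, SD, n = 3 each). Each neighbouring pair in this order had overlapping arrays. The spread was widest among the OTX015 arrays and narrowest among the DW71374 arrays. RVX208 was given at another dose than the other compounds, so its level stands beside theirs without a test.

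The comparisons with DMSO asked whether a compound moved SLC38A12 after 24 h. In limma, with adjustment over all 14812 genes and a threshold of 0.05, SLC38A12 was called in 0 of the 4 comparisons. At an unadjusted p under 0.05 it passed in 1 of them, that of RVX208, where 2938 of the 14812 genes passed it too. For scale, the same test called 25.7% of all genes with OTX015, 19.8% with DW71177, 6.52% with RVX208 and 0.00% with DW71374. An unadjusted p under 0.05 was reached by 4946 genes with OTX015, 4364 with DW71177 and 686 with DW71374.

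With OTX015 SLC38A12 differed from DMSO by 0.08 ± 0.082 on the log2 scale (SE, n = 3 and 3, limma adjusted p = 0.55). The 95% interval of this difference ran from -0.09 to 0.26, or from 0.939-fold to 1.20-fold. With DW71177 the difference was 0.07 ± 0.082 (interval -0.10 to 0.25, limma adjusted p = 0.64). With DW71374 it was 0.08 ± 0.082 (interval -0.10 to 0.25, limma adjusted p = 0.99). For these 3 compounds the interval held 0, and its upper end was a rise of 1.19- to 1.20-fold. The difference with OTX015 rested on OTX015 replicate 1: without that array it was -0.003, at a limma adjusted p of 0.99.

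RVX208 gave the largest difference of SLC38A12 from DMSO among the 4 compounds, 0.23 ± 0.082 on the log2 scale or 1.18-fold (interval 0.06 to 0.41, n = 3 and 3). The unadjusted limma p of SLC38A12 was 0.013 and the adjusted p was 0.11, which did not pass the threshold. The result changed with the setting: limma's adjusted p was 0.029 with an intensity trend and robust variances, and 0.042 among the 7406 brighter genes alone, both under the threshold. It was 0.082 after quantile normalization and 0.16 from the 6 arrays of RVX208 and DMSO alone. RVX208 replicate 3, the brightest of the 15 arrays for this gene, bore on the size, and without it the difference was 0.17 at a limma adjusted p of 0.33.

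**Figure D2:**
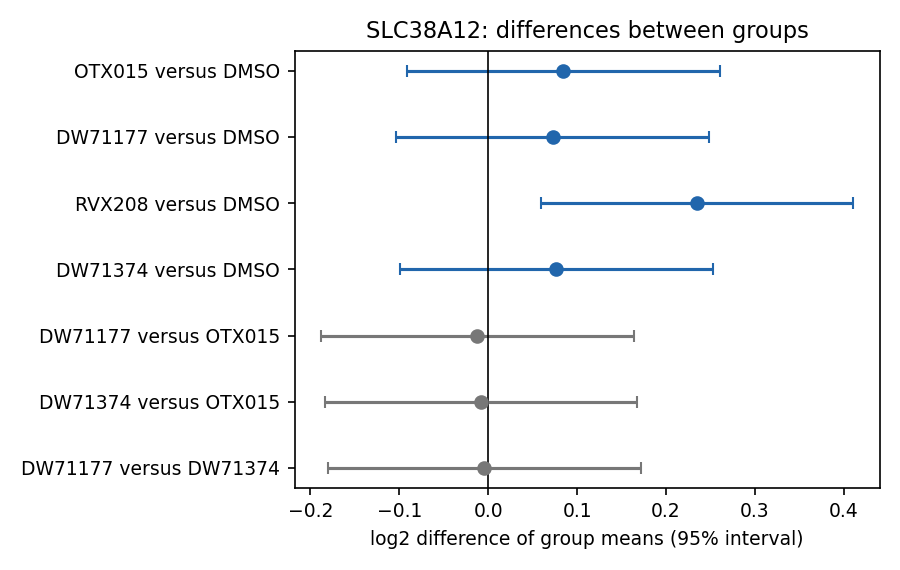
Differences of SLC38A12 between groups (horizontal axis, log2, first group minus second) with 95% intervals from limma; blue points are comparisons with DMSO and grey points are pairs of compounds at 300 nM. The interval for RVX208 versus DMSO, from 0.06 to 0.41, is the one that does not reach 0.

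Compared with the differences of all genes, those of SLC38A12 were not extreme. With OTX015, 66.4% of genes differed from DMSO by more than SLC38A12 did in either direction, with DW71177 68.5%, with DW71374 44.1% and with RVX208 16.4%. The range from the 5th to the 95th percentile of all genes ran from -0.55 to 0.44 with OTX015 and from -0.29 to 0.28 with RVX208, and SLC38A12 lay inside both ranges. The 4 comparisons share the DMSO arrays, which for SLC38A12 had the lowest mean, so its 4 positive differences are not independent of each other.

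**Figure D3:**
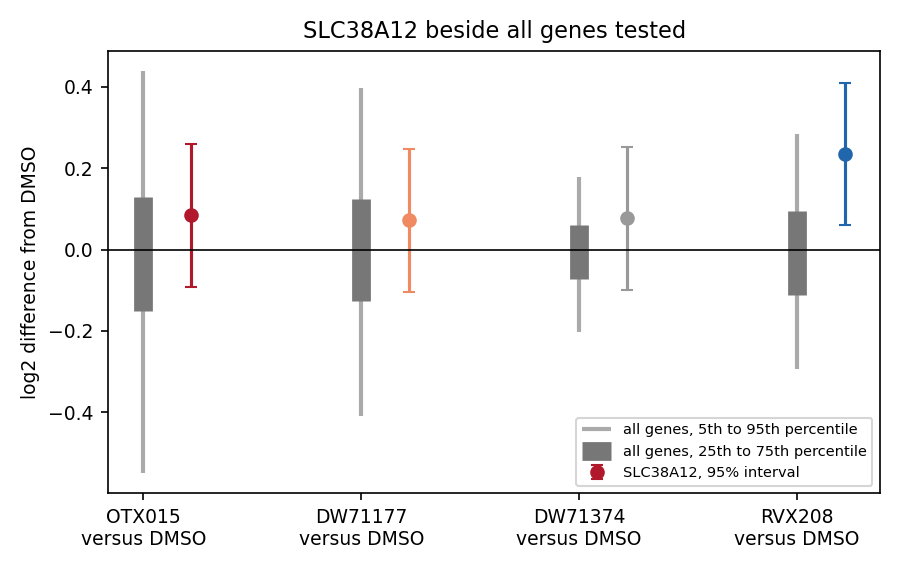
Log2 difference from DMSO (vertical axis) for each compound: thin grey lines span the 5th to 95th percentile of all 14812 genes, thick grey bars the 25th to 75th, and coloured points give SLC38A12 with its 95% interval. SLC38A12 lies within the thick bar with OTX015 and DW71177, and above it with DW71374 and RVX208.

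The 3 compounds given at 300 nM were compared with each other in 3 pairs, with p-values adjusted over the 3 pairs and all genes together. SLC38A12 differed between DW71177 and OTX015 by -0.01 ± 0.082 (interval -0.19 to 0.16, limma adjusted p = 0.96). Between DW71374 and OTX015 it differed by -0.01 ± 0.082 (interval -0.18 to 0.17, limma adjusted p = 0.97). Between DW71177 and DW71374 it differed by -0.004 ± 0.082 (interval -0.18 to 0.17, limma adjusted p = 0.99). SLC38A12 was called in 0 of these pairs, also at an unadjusted limma p under 0.05, and the intervals leave room for differences of up to 0.878-fold or 1.13-fold. Over all genes limma called 1.26% between DW71177 and OTX015, 25.2% between DW71374 and OTX015 and 19.5% between DW71177 and DW71374, each adjusted over its own comparison.

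Genes that handle amino acids inside the cell were read in the same fit beside SLC38A12. Only part of each list was measured: 16 of 24 amino acid response genes, 24 of 33 mTORC1 genes and 6 of 10 glutathione genes. The same holds for 6 of 14 glutamine and glutamate genes, 2 of 20 other carriers and 9 of 10 transcription factors. Counts below are of the measured genes. Of all genes, 11.2% were called higher and 14.5% lower with OTX015, and 3.41% higher and 3.11% lower with RVX208. Of 16 measured genes of the amino acid response, which ATF4 drives when amino acids run short, 2 rose and 5 fell with OTX015 (median -0.01, all genes -0.004). PSAT1 and PHGDH of serine synthesis fell by 0.97 and 0.95 and the lipoprotein receptor gene VLDLR fell by 0.77 on the log2 scale (limma adjusted p = 8.4e-08, 7.6e-06 and 2.9e-07). Of 24 genes that pass amino acid supply to mTORC1, 7 rose and 3 fell (median 0.08), or 6 in all without DMSO replicate 2. The leucine sensor gene SESN2, which is also on the amino acid response list and counted there, rose by 0.50 (limma adjusted p = 0.00013). SEH1L and NPRL3, parts of the GATOR complexes upstream of mTORC1, fell by 0.49 and 0.46 (limma adjusted p = 1.1e-05 and 5.4e-05). Of 6 glutathione genes 3 rose and 1 fell (median 0.17), with the glutathione reductase gene GSR up by 0.76 and the lipid peroxidase gene GPX4 up by 0.31 (limma adjusted p = 8.7e-07 and 0.00036). CTH, a dimmer gene that is also on the amino acid response list, rose by 0.38 (limma adjusted p = 0.0069). Of 2 other amino acid carriers measured, the mitochondrial ornithine carrier gene SLC25A15 fell by 0.52 (limma adjusted p = 0.0012) and SLC66A1, a lysosomal carrier of cationic amino acids, differed by -0.02. Of 6 glutamine and glutamate genes, PPAT, which starts purine synthesis, fell by 0.31, and GLUL, which makes glutamine, rose by 0.20 (median -0.07, limma adjusted p = 0.0013 and 0.017). GLUL lost its call without OTX015 replicate 1, without DMSO replicate 1 and in the fit of the 6 arrays alone, at limma adjusted p-values of 0.076, 0.053 and 0.069. Of 9 transcription factors linked to transporter genes 3 rose and 2 fell (median -0.001): MYC fell by 1.42, and ATF5 and NFE2L2 rose by 0.52 and 0.35 (limma adjusted p = 7.7e-10, 9.8e-05 and 0.00067). Beside these values stands the SLC38A12 difference of 0.08 in the same arrays.

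With RVX208, where the SLC38A12 difference was 0.23, fewer of these genes were called. Of the 16 amino acid response genes 1 rose and 4 fell (median -0.12, all genes -0.01), or 3 in all without RVX208 replicate 2 or DMSO replicate 1. PHGDH, VLDLR and PSAT1 fell by 0.70, 0.70 and 0.57, ATF4 fell by 0.26 and SESN2 rose by 0.35 (limma adjusted p = 0.00094, 1.6e-05, 0.00013, 0.049 and 0.011). ATF4 lost its call without RVX208 replicate 2 or 3 and when any 1 DMSO array was left out. It also lost it after quantile normalization and in the fit of the 6 arrays alone. In these fits limma called 1 of the 9 transcription factors, MYC, instead of 2. Of the 24 mTORC1 genes 2 rose, SESN2 and, by 0.27, KPTN (limma adjusted p = 0.025), named like ATF4 after the values were seen. The count was 1 when any RVX208 array or DMSO replicate 2 or 3 was left out and in the fit of the 6 arrays alone, 0 without DMSO replicate 1 and 4 with trend and robust variances. SESN2 lost its call without RVX208 replicate 2 or DMSO replicate 1, at limma adjusted p-values of 0.052 and 0.0503. KPTN lost its call without RVX208 replicate 1 or 3 and when any 1 DMSO array was left out. The fit of the 6 arrays alone also lost the KPTN call. GSR was the 1 glutathione gene that rose, by 0.34, and MYC fell by 0.32 (limma adjusted p = 0.0056 for GSR and 0.0027 for MYC). Limma called 0 of the 6 glutamine and glutamate genes and 0 of the 2 other carriers, with 1 and 0 at an unadjusted p under 0.05.

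Of the marker genes of a myeloid line 6 of 8 were measured, and over the 15 arrays LYZ, FLT3 and SPI1 averaged 10.5, 9.80 and 7.60 on the log2 scale. Levels of the other measured myeloid markers are not given here. In limma 4 of the 6 fell with OTX015, 3 with DW71177 and 3 with RVX208, the last being LYZ, MPO and CSF1R, by 0.75, 0.49 and 0.33. Over all genes limma called 14.5% lower with OTX015 and 3.11% lower with RVX208. With DW71177 it called 19.8% in either direction, and the share lower was not counted. Of 5 epithelial and stromal markers 3 were measured, EPCAM at 2.72, KRT8 at 5.24 and KRT18 at 7.73. Of 5 T or B cell markers and 2 erythroid markers 0 were measured. KRT18 read higher than SPI1, and brightness is not an amount of transcript, so these levels do not settle the cell type. The part of the myeloid marker shifts in the SLC38A12 values, that with RVX208 included, was not tested.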

How the data were processed

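Per the labels' protocols, total RNA of the 15 samples was copied to sense cDNA, labelled with biotin and read on an Affymetrix whole-transcript array. The deposited table holds 44629 features as log2 signals, a scale read from the values, and the near-equal quartiles of its columns show a normalization between arrays by the authors. How they corrected background and normalized, with which software and build, is not given in the sources used here. Such a normalization takes out a shift shared by all genes.

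The platform annotation named 1 gene for 15835 features, several for 0 and none for 28794, and all 15835 symbols matched RefSeq. Where a gene had several features the one with the highest mean was used. Group means of 14812 genes were fitted together in limma 3.58.1 (R 4.3.3, default lmFit and eBayes, 10 residual degrees of freedom), with two-sided p-values adjusted by Benjamini-Hochberg and a threshold of 0.05. The fit was checked on simulated data, where the planted changes were larger than any difference of SLC38A12. That check therefore does not say how often changes of the size seen for SLC38A12 would be called. The labels name no batch. Arrays give no counting depth, and their number limits the precision.

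The rule for members was given, and the context lists were chosen, with earlier results of these data known. Every member is described; up to 3 called genes of each context list are named, by smallest p with OTX015. SLC66A1, not called, is named because its list had 2 measured genes, and markers are named to check the line. Motifs came from the same plan except GCATGCGC. Alternatives were 6 other settings and, for each comparison, each of the 6 arrays of its 2 groups left out in turn.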

Additional observations from a re-analysis of the deposited data

How the results depend on the processing

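SLC38A12 was called in 0 comparisons under default settings, and the alternatives changed this for RVX208 versus DMSO alone. With trend and robust variances and among brighter genes 1 transporter gene was called there, each time at the same difference of 0.23. Among brighter genes fewer genes were adjusted for, and the variances were moderated over those genes alone. These changes were not told apart, and the cause of the calls was not tested. Quantile normalization turned the difference between DW71177 and DW71374 to 0.0156, and moved the median of all genes by at most 0.008. With 1 array left out, the number called stayed at 0 in all 7 comparisons. The difference ranged from -0.00282 to 0.14 for OTX015, 0.04 to 0.12 for DW71177, 0.17 to 0.28 for RVX208 and 0.04 to 0.13 for DW71374, each versus DMSO. It ranged from -0.0725 to 0.0752 for DW71177 versus OTX015, -0.0683 to 0.0795 for DW71374 versus OTX015, and -0.0319 to 0.0266 for DW71177 versus DW71374.

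Same-numbered arrays shared little deviation from their group means: the deviations correlated at -0.09 to 0.10, with 0 of 30 pairs over 0.1. Of 60 pairs with different numbers 2 were over 0.1. Whether the samples were handled in matched sets cannot be told from these correlations. With the replicate number as a block the RVX208 difference stayed at 0.23 (limma adjusted p = 0.15), and 0 members were called in every comparison. Context genes named by smallest p with OTX015 were run under the same alternatives, a choice made after seeing the data. ATF4 and KPTN were not among them, and their lost calls with RVX208, given above, were read from the list counts. With OTX015 3 of 179 values lost their call, all of GLUL, with DW71177, whose values are not given above, 5 of 132, and with RVX208 2 of 72, both of SESN2. The number that changed direction was 0.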
